A study of Mus musculus with 12 samples.

Results

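Matrix metalloproteinases and the tissue inhibitors that block them were followed in lung macrophages of tumor-bearing mice. The 10 genes are the rows of the processed table with the symbols Mmp2, Mmp8, Mmp9, Mmp12, Mmp13, Mmp14, Mmp19, Timp1, Timp2 and Timp3, out of 14648 genes in the table, and all 10 were found and passed the filter on low counts. RNA-Seq was performed on CD11c+ and CD11c- interstitial macrophages (IMs) and on alveolar macrophages (AMs), which flow cytometry had separated out of the lungs of C57BL/6 mice carrying B16 tumors, a transplantable mouse melanoma. The sort took live MerTK+ CD64+ cells and divided them by Siglec-F and CD11c. There are 6 groups of 2 libraries: CD11c+ IMs, CD11c- IMs and AMs labelled Il9r-/-, meaning that the mice lack the IL-9 receptor, and the same populations labelled WT. Mice of both sexes aged 8 to 16 weeks were used in the study, and nothing says whether a library is 1 mouse or a pool. The p-values measure the spread between the 2 libraries of a group, pooled over the 6 groups. In WT these 2 libraries came from mice of different sex, as sex-linked genes show below. Under the Il9r-/- label their spread may be technical.

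Matrix metalloproteinases are zinc enzymes that cut collagen, elastin, gelatin and other parts of the extracellular matrix, and they also release and inactivate growth factors, cytokines and chemokines. Most are made as inactive proenzymes that have to be cut to become active, and the tissue inhibitors of metalloproteinases (TIMPs) bind the active site and shut it. Macrophages of the lung and of tumors are a known source of both, and macrophage elastase, the product of Mmp12, is best known from emphysema. Levels of mRNA say nothing about how much enzyme was secreted, activated or inhibited.

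The 7 enzymes share the site that holds the catalytic zinc, and the 3 inhibitors share the amino terminus that enters it, so these stretches are shown as the molecular basis of the pairing. The coding sequences are those of the GENCODE M21 transcripts on GRCm38, given from 5′ to 3′. Capitals mark the codons of the 3 histidines that bind the zinc, in 33 bases of each enzyme.
Mmp2: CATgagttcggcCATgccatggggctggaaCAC
Mmp8: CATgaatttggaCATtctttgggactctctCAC
Mmp9: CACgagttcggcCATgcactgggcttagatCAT
Mmp12: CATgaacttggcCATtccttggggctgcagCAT
Mmp13: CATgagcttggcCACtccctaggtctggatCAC
Mmp14: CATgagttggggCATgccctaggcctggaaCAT
Mmp19: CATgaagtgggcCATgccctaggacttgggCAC
Over these 33 bases the 7 genes differ pairwise at 6 to 13 positions, fewest between Mmp2 and Mmp14 and most between Mmp8 and Mmp9 and between Mmp8 and Mmp14. Capitals mark the codons of the first and the third residue of the mature inhibitor, both cysteines, in the first 24 bases after the signal peptide.
Timp1: TGTagcTGTgccccaccccaccca
Timp2: TGCagcTGCtccccggtgcacccg
Timp3: TGCacaTGCtctcccagccatccc

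Depth was 26988617 to 42020021 counts per library. CD11c was checked by its gene Itgax, which stood at 302 to 437 CPM (counts scaled to library size and normalized by the trimmed mean of M values) in CD11c+ IMs and at 27.9 to 54.1 CPM in CD11c- IMs, and Siglecf stood at 10.8 to 65.1 CPM in both IM populations and at 616 to 686 CPM in AMs. Mertk stood at 59.8 to 204 CPM in CD11c+ IMs, 20.6 to 100 CPM in CD11c- IMs and 353 to 435 CPM in AMs. In CD11c- IMs it was lowest in library 2, at 20.6 CPM under the Il9r-/- label and 30.9 CPM in WT. Fcgr1, the gene of CD64, stood at 63.5 to 159, 58 to 101 and 66 to 76.5 CPM in the 3 populations. The 12 markers of IMs summed to 9210 to 16900 CPM in CD11c+ IMs, 7250 to 21800 CPM in CD11c- IMs and 154 to 348 CPM in AMs. Il9r, the deleted gene, went against its labels: it had 2.59 to 6.82 CPM in the 6 libraries labelled Il9r-/-, against 0.158 to 0.75 CPM in 5 of the 6 WT libraries and 6.47 CPM in library 2 of the WT CD11c- IMs. What was deleted is not shown by a count over the whole gene, so the groups are called by their label. Xist marked the 3 WT libraries numbered 1 as female and the other 9 as male, so sex cannot be told apart from the genotype label in libraries numbered 1. The CD11c- IM libraries also held marker RNA of other cells: 801 to 1080 CPM over 10 fibroblast genes, 417 to 6840 CPM over 9 neutrophil genes and 3500 to 9330 CPM over 8 melanocyte genes, against 23.7 to 85.8, 326 to 2290 and 68.2 to 838 CPM in CD11c+ IMs and 18.7 to 26.3, 114 to 268 and 85.8 to 351 CPM in AMs. Lung epithelial markers (10 genes) summed to 596 to 6520 CPM in CD11c- IMs, 184 to 375 CPM in CD11c+ IMs and 1380 to 1570 CPM in AMs, and B cell markers (5 genes) to 180 to 1460, 99.1 to 472 and 21.7 to 49.1 CPM. Of 10 endothelial markers, which summed to 74.9 to 410, 75.2 to 198 and 48.5 to 75.2 CPM, 9 were called higher in CD11c- IMs than in AMs under each label. In bulk RNA, fewer cells of a type and less RNA per cell cannot be told apart.

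Each population had a different leading metalloproteinase. Per length (FPKM, fragments scaled to gene length and library size, from the deposited log2 values), Mmp12 made up 62.1% and 31.4% of the summed FPKM of the 7 Mmp genes in libraries 1 and 2 of the CD11c+ IMs labelled Il9r-/-, and 63% and 52.3% in the WT CD11c+ IMs. Mmp9 made up 62.1% and 66.7% in the CD11c- IMs labelled Il9r-/-, and 51.6% and 62.4% in the WT CD11c- IMs. In AMs, Mmp19 and Mmp8 led together. Mmp19 held 42% and 44.2% in the AMs labelled Il9r-/- and 30.9% and 42% in the WT AMs, and Mmp8 held 44.5% and 35.1% and 27.7% and 23.3% in the same libraries. Values are given in this order of libraries, 1 and then 2, throughout. The share of Mmp12 was higher in every CD11c+ IM library, that of Mmp9 in every CD11c- IM library and that of Mmp19 in every AM library than in any library of the other populations. In CD11c+ IM library 2 labelled Il9r-/-, Mmp9 held 34.4%, more than Mmp12. That library also had the highest sum of neutrophil markers among the CD11c+ IMs, 2290 CPM. The part of neutrophil RNA in the shares of Mmp9 and Mmp8 was not tested.

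**Figure D1:**
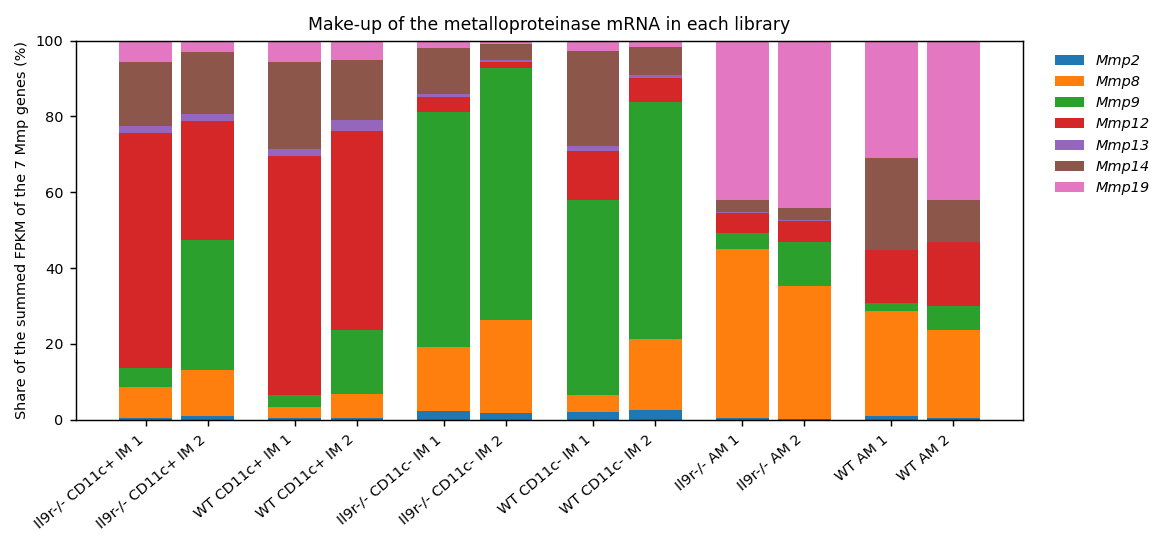
Share of the summed FPKM of the 7 Mmp genes held by each gene (vertical axis, percent) in each of the 12 libraries (horizontal axis, group and library number). Mmp12 fills 31.4% to 63% of the bars of CD11c+ IMs, Mmp9 51.6% to 66.7% of those of CD11c- IMs, and Mmp19 and Mmp8 are the broadest parts of the 4 AM bars, with Mmp14 at 24.3% in WT AM library 1.

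The sums themselves differed as well. The 7 Mmp genes summed to 588 and 327 FPKM in CD11c+ IMs labelled Il9r-/- and 660 and 481 FPKM in WT CD11c+ IMs, to 388 and 471 FPKM and 238 and 324 FPKM in the CD11c- IMs of the same labels, and to 80 and 80.5 FPKM and 128 and 99 FPKM in the AMs. Timp2 alone held 86.2% to 98.7% of the summed FPKM of the 3 inhibitor genes in the 12 libraries. The ratio of the Mmp sum to the Timp sum was 3.01 to 3.65 in the 4 CD11c+ IM libraries, 0.785 to 3.46 in the 4 CD11c- IM libraries and 1.96 to 2.28 in the 4 AM libraries. The ranges of CD11c+ IMs and AMs did not overlap, while that of CD11c- IMs overlapped both, with the 2 libraries numbered 1 lowest (1.32 in the library labelled Il9r-/- and 0.785 in WT). These ratios count transcripts and were not tested.

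Within a group, the order of the 10 genes on the log2 FPKM scale could be read only in part. In WT CD11c+ IMs Mmp12 averaged 8.34 ± 0.51 (SD, n = 2) and stood clear of Timp2 at 7.31 ± 0.45, but Mmp14, Mmp9, Mmp19, Mmp8, Timp1 and Mmp13, in this order below Timp2, each overlapped the gene above. In CD11c+ IMs labelled Il9r-/- Mmp12 averaged 7.6 ± 1.3 and overlapped Timp2 at 6.88 ± 0.54. Mmp9 and Timp2 led in CD11c- IMs and overlapped each other, at 8.1 ± 0.27 and 7.5 ± 0.8 in those labelled Il9r-/- and 7.3 ± 0.51 and 7.49 ± 0.93 in WT. In AMs the order opened with Timp2, Mmp19 and Mmp8, with means of 5.17, 5.11 and 4.99 that overlapped in those labelled Il9r-/- and of 5.79, 5.34 and 4.83 that did not in WT, and it closed with Mmp13.

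Counts were tested with edgeR's quasi-likelihood test over all 14648 genes, and called genes are those whose p, adjusted after Benjamini and Hochberg, was under 0.05. For CD11c+ IMs over AMs, 7 of the 10 genes were called in the libraries labelled Il9r-/-, all higher, where 12.5% of all genes were called, and 5 of 10 in WT, all higher, where 11.6% were. Over AMs, in CD11c- IMs, 8 of 10 were called under the Il9r-/- label, 7 higher and 1 lower, against 29% of all genes, and 7 of 10 in WT, 6 higher and 1 lower, against 25.7%. In CD11c+ IMs over CD11c- IMs, 2 of 10 were called under each label, Mmp12 higher and Timp3 lower, where 2.18% and 0.758% of all genes were called under the Il9r-/- label and in WT. The median log2 fold change of the 10 genes was 3.15 and 2.12 for CD11c+ IMs over AMs under the Il9r-/- label and in WT, and 3.76 and 2.21 for CD11c- IMs over AMs, beside medians over all genes of 0.02, 0.03, 0.11 and 0.13. These comparisons share their AM libraries. Without the 3 female WT libraries, which left 1 library per WT group, 0 of 10 genes were called for WT CD11c+ IMs over AMs, 2 for WT CD11c- IMs over AMs and 0 between the WT IM populations, where 0, 493 and 1 of all 14423 genes tested were called. When the fit held no other groups, none of the 10 was called between the IM populations under either label, where 7 of 13829 genes were called under the Il9r-/- label and 7 of 13673 in WT.

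**Figure D2:**
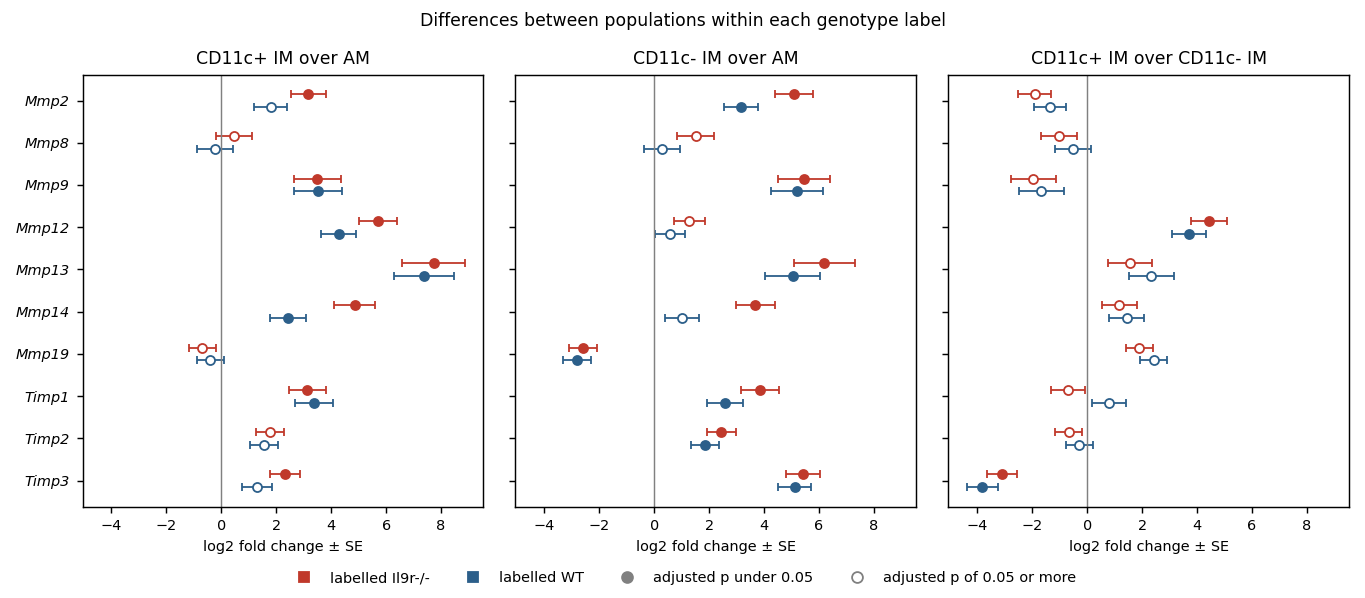
Log2 fold changes with standard errors (horizontal axes) of the 10 genes (rows) between populations, red for the libraries labelled Il9r-/- and blue for WT. Filled points have an adjusted p under 0.05 and number 7 and 5, 8 and 7, and 2 and 2 in the 3 panels from left to right, red before blue.

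Mmp12 and Mmp13 were highest in CD11c+ IMs. Mmp12 (chr9:7347374-7360461 of mm10, plus strand) encodes macrophage elastase, and Mmp13 (chr9:7272514-7283333, plus strand) collagenase 3, which opens the triple helix of fibrillar collagen. Mmp12 had 1320 and 369 CPM in CD11c+ IMs labelled Il9r-/-, 53.8 and 23.7 CPM in CD11c- IMs and 15.7 and 16.4 CPM in AMs of that label. In WT, Mmp12 had 1500 and 907 CPM in CD11c+ IMs, 112 and 74.1 CPM in CD11c- IMs and 64.1 and 61.0 CPM in AMs. Every CD11c+ IM library lay above every library of the other populations, and CD11c- IMs and AMs overlapped when the labels were pooled. The log2 fold change of Mmp12 in CD11c+ IMs over CD11c- IMs was 4.44 ± 0.65 (SE) under the Il9r-/- label (adjusted p = 0.0146, edgeR) and 3.69 ± 0.62 in WT (adjusted p = 0.0362). It was 5.72 ± 0.69 (adjusted p = 0.00135) and 4.27 ± 0.64 (adjusted p = 0.00405) over AMs. For CD11c- IMs over AMs the values of 1.27 ± 0.57 and 0.57 ± 0.56 did not pass. The call between the IM populations labelled Il9r-/- was kept without either CD11c+ IM library (adjusted p = 0.0394 and 0.00621, edgeR) and lost without CD11c- IM library 1 or 2 (adjusted p = 0.0563 and 0.058). The WT call was lost without any 1 of its 4 libraries, with an adjusted p of 0.156, 0.103, 0.174 and 0.102 without WT CD11c+ IM library 1 or 2 or WT CD11c- IM library 1 or 2 and log2 fold changes of 3.29 to 4.04. The WT call over AMs was lost without WT AM library 2 (4.23, adjusted p = 0.0526). Dendritic cell markers (10 genes) were also highest in CD11c+ IMs, at 927 and 2200 CPM under the Il9r-/- label and 499 and 1510 CPM in WT, against 221 to 934 CPM in CD11c- IMs and 28.3 to 60.2 CPM in AMs, with the higher sum in the library that had less Mmp12, and their part in the result was not tested.

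Mmp13 had 29.1 and 16.4 CPM in CD11c+ IMs labelled Il9r-/- and 9.1 and 6.48 CPM in CD11c- IMs of that label, with 0 and 7 counts in the AMs. In WT it had 35 and 39.4 CPM in CD11c+ IMs and 7.89 and 6.88 CPM in CD11c- IMs, with 15 and 0 counts in the AMs. A count of 0 allows up to 0.0714 CPM in AM library 1 labelled Il9r-/- and 0.0991 CPM in WT AM library 2 (3 counts of each total, counting error only). All IM libraries lay above all AM libraries, and all CD11c+ IM libraries above all CD11c- IM libraries. Against AMs, Mmp13 was called higher in CD11c+ IMs, with a log2 fold change of 7.73 ± 1.15 under the Il9r-/- label (adjusted p = 0.00345, edgeR) and 7.38 ± 1.09 in WT (adjusted p = 0.00375). It was also called in CD11c- IMs, at 6.18 ± 1.11 (adjusted p = 0.00416) and 5.04 ± 1.01 (adjusted p = 0.0074). The AM side of these values rests on at most 15 counts a library, so their size is uncertain. Between the IM populations, values of 1.55 ± 0.80 and 2.33 ± 0.82 did not pass (adjusted p = 0.358 and 0.199).

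Both genes lie in a cluster on chromosome 9 that also holds Mmp3, Mmp8 and Mmp27 of this table, and their promoters are shown because these neighbours were the 2 members with every CD11c+ IM library above every other library. The sequences are the 250 bases before the start site that the deposited annotation and RefSeq share (GRCm38.p6, chr9:7272264-7272513 and chr9:7347124-7347373, plus strand). Capitals mark matches, on either strand, to the letters of an AP-1 site (TGANTCA), a PEA3 site of ETS factors (AGGAAG) or a TATA box (TATAAA), none of which overlap each other here.
Mmp13 promoter: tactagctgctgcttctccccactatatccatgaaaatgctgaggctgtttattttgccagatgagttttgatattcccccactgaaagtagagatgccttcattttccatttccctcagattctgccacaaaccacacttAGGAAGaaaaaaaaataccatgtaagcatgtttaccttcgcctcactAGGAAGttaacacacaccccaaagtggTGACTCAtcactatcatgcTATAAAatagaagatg
Mmp12 promoter: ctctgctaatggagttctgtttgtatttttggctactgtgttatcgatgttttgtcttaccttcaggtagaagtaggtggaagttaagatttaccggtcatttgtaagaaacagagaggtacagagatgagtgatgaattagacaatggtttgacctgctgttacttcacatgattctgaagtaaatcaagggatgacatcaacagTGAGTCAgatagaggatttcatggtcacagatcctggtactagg
AP-1 letters began at −35 from the start of Mmp13 and at −44 from that of Mmp12. Of 32851 promoter windows of this length, 6.75% hold an AP-1 match, 29.5% a PEA3 match and 12.4% a TATA match. Mmp13 also held PEA3 letters at −109 and −62 and TATA letters at −16 from the start. Among the other members with a window, Mmp8, Mmp14 and Timp3 held 1 PEA3 match each, Timp1 held 2 and Timp2 held no match, and none of these 5 held AP-1 letters. Mmp2, Mmp9 and Mmp19 had no window and were not searched. A second RefSeq start of Mmp12, upstream of this one, held only a PEA3 match. A match describes letters and is not a bound site.

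Mmp14 was also highest in CD11c+ IMs within each label. Mmp14 (chr14:54431604-54441258, plus strand) encodes the membrane-anchored MT1-MMP, which cuts collagen at the cell surface and, together with Timp2, activates the proenzyme of Mmp2. It had 259 and 137 CPM in CD11c+ IMs labelled Il9r-/-, 122 and 53.3 CPM in CD11c- IMs and 6.86 and 6.79 CPM in AMs. In WT it had 390 and 198 CPM in CD11c+ IMs, 156 and 63.6 CPM in CD11c- IMs and 80.5 and 28.3 CPM in AMs. In both labels the CD11c+ IMs lay above the AMs without overlap. The WT CD11c- IMs overlapped the WT AMs. Mmp14 was called higher in CD11c+ IMs than in AMs, with a log2 fold change of 4.86 ± 0.74 under the Il9r-/- label (adjusted p = 0.00392, edgeR) and 2.44 ± 0.66 in WT (adjusted p = 0.0448). In CD11c- IMs over AMs it was called under the Il9r-/- label at 3.68 ± 0.70 (adjusted p = 0.00547), and the WT value of 1.01 ± 0.63 did not pass. Between the IM populations, CD11c+ over CD11c-, it gave 1.17 ± 0.64 under the Il9r-/- label and 1.43 ± 0.64 in WT, which did not pass either (adjusted p = 0.38 and 0.312). With the library number as a block, the difference between the WT IM populations was 1.48 (adjusted p = 0.036, edgeR). The WT call was lost without any 1 of its 4 libraries: the adjusted p was 0.192 and 0.0702 without CD11c+ IM library 1 or 2, and 0.065 and 0.243 without AM library 1 or 2, with log2 fold changes of 1.87 to 3.38. Both calls under the Il9r-/- label were lost without AM library 1 (4.88 and 3.67, adjusted p = 0.0526 and 0.051).

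**Figure D3:**
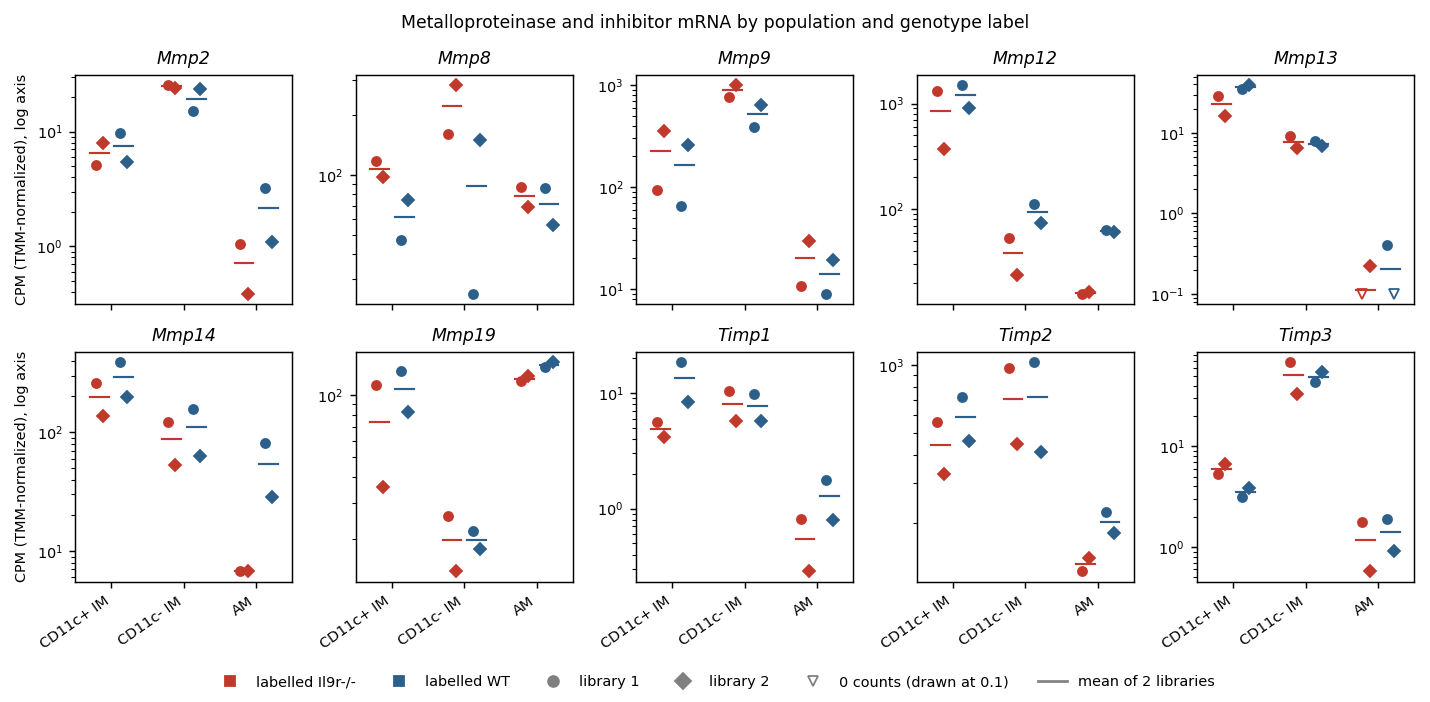
TMM-normalized CPM (vertical log axis) of the 10 genes in every library, by population and label, red for the libraries labelled Il9r-/- and blue for WT, circles for library 1 and diamonds for library 2, with a line at the mean of 2 libraries. Mmp12, Mmp13 and Mmp14 were highest in CD11c+ IMs, Mmp2, Mmp9 and Timp3 in CD11c- IMs, and the open triangles of Mmp13 are the 2 AM libraries with 0 counts.

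The gelatinases Mmp9 and Mmp2, which digest denatured collagen and basement membrane collagen, were highest in CD11c- IMs. Mmp9 (chr2:164948219-164955849, plus strand) had 93.8 and 357 CPM in CD11c+ IMs labelled Il9r-/-, 765 and 998 CPM in CD11c- IMs and 10.6 and 29.4 CPM in AMs. The WT libraries had 65.2 and 260 CPM in CD11c+ IMs, 390 and 641 CPM in CD11c- IMs and 8.92 and 19.4 CPM in AMs. The 3 populations did not overlap in either label. Mmp9 was called over AMs in CD11c- IMs, at 5.46 ± 0.95 under the Il9r-/- label (adjusted p = 0.00368, edgeR) and 5.19 ± 0.94 in WT (adjusted p = 0.0049), and in CD11c+ IMs, at 3.50 ± 0.87 (adjusted p = 0.0306) and 3.52 ± 0.87 (adjusted p = 0.032). The 2 calls in CD11c+ IMs were lost without CD11c+ IM library 2 or either AM library of their label: the adjusted p was 0.183, 0.197 and 0.084 under the Il9r-/- label and 0.177, 0.192 and 0.121 in WT, with log2 fold changes of 2.23 to 4.40. CD11c+ IMs over CD11c- IMs gave −1.97 ± 0.82 and −1.67 ± 0.81, which did not pass (adjusted p = 0.247 and 0.352). With the library number as a block these were −2.28 and −1.92 and passed (adjusted p = 0.0152 and 0.0358, edgeR).

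Mmp9 is also a granule enzyme of neutrophils, and it moved with their markers. The 9 neutrophil genes in the table, S100a8 and S100a9 among them, summed to 569 and 2290 CPM in CD11c+ IMs labelled Il9r-/-, 3120 and 6840 CPM in CD11c- IMs and 181 and 268 CPM in AMs, and to 326 and 1370, 417 and 3350, and 114 and 170 CPM in WT. Mmp9 was 0.146 to 0.246 of that sum in 7 of the 8 IM libraries, 0.936 in WT CD11c- IM library 1 and 0.0589 to 0.114 in the AM libraries. In that 1 library Mmp9 stood at 390 CPM beside 417 CPM of neutrophil markers, against 260 CPM beside 1370 CPM in WT CD11c+ IM library 2. For CD11c- IMs over AMs 5 of the 9 markers were called higher under the Il9r-/- label and 3 in WT, with median log2 fold changes of 4.96 and 4.71, and in CD11c+ IMs over AMs the medians were 2.87 and 3.41. Their part in the Mmp9 levels was not tested.

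Mmp2 (chr8:92827328-92853420, plus strand) had 5.07 and 8.0 CPM in CD11c+ IMs labelled Il9r-/-, 25.5 and 24 CPM in CD11c- IMs and 1.04 and 0.384 CPM in AMs. WT values were 9.69 and 5.44 CPM in CD11c+ IMs, 15 and 23.7 CPM in CD11c- IMs and 3.22 and 1.09 CPM in AMs. The populations did not overlap in either label. Over AMs, in CD11c- IMs, it was called at 5.09 ± 0.69 under the Il9r-/- label (adjusted p = 0.00119, edgeR) and at 3.15 ± 0.62 in WT (adjusted p = 0.007). It was also called in CD11c+ IMs over AMs at 3.17 ± 0.64 under the Il9r-/- label (adjusted p = 0.014), and the WT value of 1.80 ± 0.60 did not pass (adjusted p = 0.0862). The values for CD11c+ over CD11c- IMs, −1.92 ± 0.59 under the Il9r-/- label and −1.35 ± 0.58 in WT, did not pass in edgeR (adjusted p = 0.13 and 0.291), and DESeq2 called the first (−1.94, adjusted p = 0.0182). The WT call in CD11c- IMs was lost without WT AM library 2 (2.58, adjusted p = 0.0516). The call in CD11c+ IMs was lost without CD11c+ IM library 2 (2.81, adjusted p = 0.0658) or AM library 2 (2.64, adjusted p = 0.098) of its label.

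**Figure D4:**
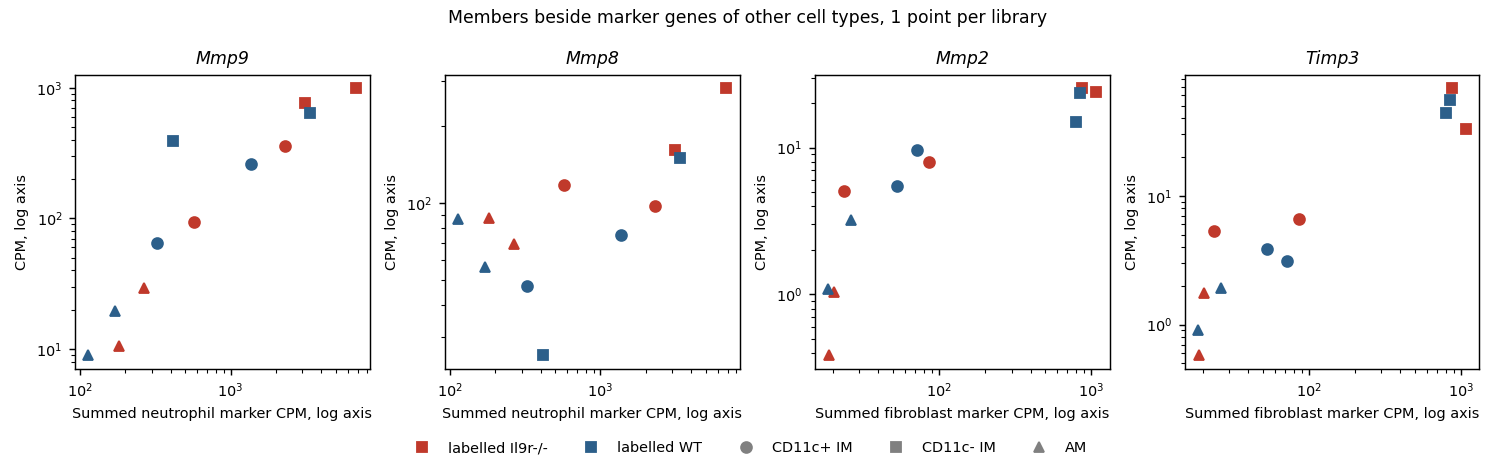
CPM of Mmp9, Mmp8, Mmp2 and Timp3 (vertical log axes) against the summed CPM of 9 neutrophil or 10 fibroblast marker genes (horizontal log axes), 1 point per library, red for the label Il9r-/- and blue for WT, circles for CD11c+ IMs, squares for CD11c- IMs and triangles for AMs. The blue square that stands off the rest in the Mmp9 panel is WT CD11c- IM library 1 (390 CPM beside 417 CPM of markers), and the 4 CD11c- IM libraries lie apart at 801 to 1080 CPM of fibroblast markers.

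Mmp8 stood in the same order as Mmp9 under the Il9r-/- label, without overlap, but not in WT. Mmp8 (chr9:7558429-7568486, plus strand) encodes neutrophil collagenase and had 118 and 97.4 CPM in CD11c+ IMs labelled Il9r-/-, 161 and 283 CPM in CD11c- IMs and 87.3 and 69.1 CPM in AMs. The values in WT were 47.3 and 75.3 CPM in CD11c+ IMs, 25.3 and 150 CPM in CD11c- IMs and 86.6 and 56.4 CPM in AMs. The WT populations overlapped in every pair, with WT CD11c- IM library 1 lowest of the 12 and library 2 of the same group at 150 CPM below only the 2 CD11c- IM libraries labelled Il9r-/-. None of the 6 comparisons between populations was called in the fit of all groups. The log2 fold changes were 0.46 ± 0.65 and −0.22 ± 0.65 for CD11c+ IMs over AMs under the Il9r-/- label and in WT, and 1.51 ± 0.67 and 0.29 ± 0.65 for CD11c- IMs over AMs. In CD11c+ over CD11c- IMs they were −1.04 ± 0.66 and −0.52 ± 0.66. For CD11c- IMs over AMs under the Il9r-/- label, Mmp8 was called higher by DESeq2 (1.54, adjusted p = 0.0484) and by edgeR with only the groups compared (1.48, adjusted p = 0.0331). Without WT CD11c- IM library 2 the WT value was −1.50 with an adjusted p of 0.0491 (edgeR). Mmp8 was 0.0414 to 0.0607 of the neutrophil marker sum in the 4 CD11c- IM libraries, 0.0425 to 0.208 in CD11c+ IMs and 0.258 to 0.757 in AMs, so the AM libraries held the most Mmp8 for their neutrophil markers.

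Mmp19 was the only member called lower in an IM population than in AMs. Mmp19 (chr10:128790910-128800824, plus strand) encodes an enzyme that cuts basement membrane proteins. It had 112 and 35.9 CPM in CD11c+ IMs labelled Il9r-/-, 25.8 and 14.0 CPM in CD11c- IMs and 116 and 123 CPM in AMs. WT libraries stood at 130 and 82.2 CPM in CD11c+ IMs, 21.9 and 17.9 CPM in CD11c- IMs and 136 and 144 CPM in AMs. All CD11c- IM libraries lay below all others. Mmp19 fell by 2.59 ± 0.50 on the log2 scale in CD11c- IMs over AMs under the Il9r-/- label (adjusted p = 0.00596, edgeR), and fell by 2.81 ± 0.51 in WT (adjusted p = 0.00478). For CD11c+ IMs over AMs the values of −0.69 ± 0.48 and −0.40 ± 0.48 did not pass, and without CD11c+ IM library 1 labelled Il9r-/- the first was −1.74 with an adjusted p of 0.0274. In CD11c+ IMs over CD11c- IMs, 1.90 ± 0.49 and 2.42 ± 0.50 did not pass (adjusted p = 0.0849 and 0.0652), but DESeq2 called both (1.87 and 2.42, adjusted p = 0.00323 and 7.03e-05), as did the fit without CD11c+ IM library 2 labelled Il9r-/- for the first (2.5, adjusted p = 0.0156). With the library number as a block, edgeR also called Mmp19 between the IM populations under both labels (1.83 and 2.38, adjusted p = 0.0342 and 0.0179). The sum of 12 AM markers in CD11c+ IMs was 19000 and 4690 CPM under the Il9r-/- label, beside 112 and 35.9 CPM of Mmp19, and 11700 and 12500 CPM in WT, against 1620 to 3190 CPM in CD11c- IMs and 39100 to 51300 CPM in AMs, and its part in the Mmp19 levels was not tested. Exons of Mmp19 overlap those of Tmem198b, which had 7.5 to 17.8 CPM in the 12 libraries, on the other strand, and reads of the 2 cannot be told apart with a kit that does not mark strand.

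The inhibitors differed in where they stood. Timp2 (chr11:118301061-118355411, minus strand), a soluble inhibitor, was the most abundant of them in every library. It had 557 and 327 CPM in CD11c+ IMs labelled Il9r-/-, 972 and 445 CPM in CD11c- IMs and 122 and 139 CPM in AMs. The WT libraries had 717 and 462 CPM in CD11c+ IMs, 1030 and 413 CPM in CD11c- IMs and 224 and 179 CPM in AMs. All IM libraries lay above all AM libraries and the IM populations overlapped, with log2 fold changes of −0.68 ± 0.49 and −0.29 ± 0.49 for CD11c+ over CD11c- IMs under the Il9r-/- label and in WT that did not pass. Over AMs, in CD11c- IMs, Timp2 was called, at 2.44 ± 0.52 under the Il9r-/- label (adjusted p = 0.00864, edgeR) and 1.84 ± 0.51 in WT (adjusted p = 0.0273). In CD11c+ IMs over AMs 1.76 ± 0.51 and 1.55 ± 0.50 did not pass (adjusted p = 0.0526 and 0.0807), whereas DESeq2 called both (adjusted p = 0.0031 and 0.0112). The call under the Il9r-/- label was lost without AM library 1 or 2 (2.32 and 2.51, adjusted p = 0.0731 and 0.058). The WT call was lost without CD11c- IM library 1 (1.04, adjusted p = 0.154) and without AM library 1 or 2 (2.01 and 1.69, adjusted p = 0.104 and 0.156).

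Timp1 (chrX:20870166-20874737, plus strand), a soluble inhibitor induced in many inflamed tissues, had 5.57 and 4.19 CPM in CD11c+ IMs labelled Il9r-/-, 10.3 and 5.73 CPM in CD11c- IMs and 0.808 and 0.288 CPM in AMs. WT values were 18.5 and 8.38 CPM in CD11c+ IMs, 9.73 and 5.73 CPM in CD11c- IMs and 1.77 and 0.796 CPM in AMs. All IM libraries lay above all AM libraries. Timp1 was called in all 4 comparisons with AMs: in CD11c+ IMs at 3.13 ± 0.68 under the Il9r-/- label (adjusted p = 0.0193, edgeR) and 3.37 ± 0.68 in WT (adjusted p = 0.0136), and in CD11c- IMs at 3.84 ± 0.70 (adjusted p = 0.00451) and 2.58 ± 0.66 (adjusted p = 0.0201). Its values for CD11c+ over CD11c- IMs were −0.71 ± 0.61 under the Il9r-/- label and 0.80 ± 0.61 in WT and did not pass (adjusted p = 0.609 and 0.587). The call in CD11c+ IMs labelled Il9r-/- was lost without CD11c+ IM library 2 or AM library 1 or 2 (3.32, 4.08 and 2.59, adjusted p = 0.0514, 0.0557 and 0.121). That in WT CD11c+ IMs was lost without CD11c+ IM library 1 or AM library 1 or 2 (2.69, 4.07 and 2.92, adjusted p = 0.0758, 0.0523 and 0.119). That in WT CD11c- IMs was lost without CD11c- IM library 1 or AM library 2 (2.15 and 2.12, adjusted p = 0.073 and 0.134).

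Timp3 (chr10:86300412-86349505, plus strand), which is held in the matrix and also inhibits sheddases of the ADAM family, was highest in CD11c- IMs. These libraries also held the most fibroblast marker RNA. It had 5.28 and 6.61 CPM in CD11c+ IMs labelled Il9r-/-, 68.7 and 32.9 CPM in CD11c- IMs and 1.77 and 0.576 CPM in AMs. The values in WT were 3.11 and 3.85 CPM in CD11c+ IMs, 43.5 and 54.9 CPM in CD11c- IMs and 1.91 and 0.905 CPM in AMs. The 3 populations did not overlap in either label. For CD11c- IMs over AMs it was called at 5.42 ± 0.62 under the Il9r-/- label (adjusted p = 0.000586, edgeR) and 5.11 ± 0.61 in WT (adjusted p = 0.00079), with no library whose loss ended either call. Over AMs, in CD11c+ IMs, it was called at 2.32 ± 0.56 under the Il9r-/- label (adjusted p = 0.0268) and stood at 1.29 ± 0.55 in WT (adjusted p = 0.172). In CD11c+ IMs over CD11c- IMs Timp3 fell by 3.10 ± 0.55 on the log2 scale under the Il9r-/- label (adjusted p = 0.026, edgeR), and fell by 3.82 ± 0.57 in WT (adjusted p = 0.022). Without CD11c+ IM library 1 or 2 or CD11c- IM library 1 labelled Il9r-/- the adjusted p of this difference was 0.168, 0.0648 and 0.109 (−2.92, −3.27 and −2.47), and without WT CD11c+ IM library 1 or 2 or WT CD11c- IM library 1 or 2 it was 0.173, 0.167, 0.0792 and 0.0514 (−3.68, −3.96, −3.98 and −3.65). The call in CD11c+ IMs over AMs was lost without CD11c+ IM library 2 (2.15, adjusted p = 0.113) or AM library 2 (1.75, adjusted p = 0.133).

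Fibroblasts, whose genes include Mmp2 and Timp3, were represented in the CD11c- IM libraries. The 10 fibroblast markers, Col1a1 and Dcn among them, summed to 875 and 1080 CPM in CD11c- IMs labelled Il9r-/- and 801 and 850 CPM in WT, and 9 of the 10 were called higher than in AMs under each label. Timp3 was 0.0305 to 0.0786 of that sum in the CD11c- IMs, 0.0435 to 0.223 in CD11c+ IMs and 0.0305 to 0.087 in AMs, and Mmp2 was 0.0187 to 0.0292, 0.0932 to 0.214 and 0.0203 to 0.122 of it. Melanocyte genes, which the injected tumor expresses, were called higher in CD11c- IMs than in AMs for 7 of 8 genes under each label. An exon of Timp3 also overlaps Syn3 on the other strand, which had at most 2.36 CPM. The part of fibroblast or tumor RNA in these levels was not tested.

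The genotype labels were compared within each population, the question of the study being how macrophages that lack the IL-9 receptor differ in tumor-bearing lungs. None of the 10 genes was called in CD11c+ IMs, CD11c- IMs or AMs, where 0.00683%, 0% and 0.0205% of all genes were called by edgeR. At an unadjusted p under 0.05 there were 1, 0 and 3 members and 569, 249 and 597 genes. Since Il9r went against the labels, the direction of these values is that of the labels only.

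The lowest p-values were those of Mmp14 and Mmp12 in AMs. Mmp14 had 6.86 and 6.79 CPM in AMs labelled Il9r-/-, against 80.5 and 28.3 CPM in WT AMs, a log2 fold change of −2.99 ± 0.68 (adjusted p = 0.706, edgeR). Mmp12 had 15.7 and 16.4 CPM in AMs labelled Il9r-/-, against 64.1 and 61.0 CPM in WT AMs, a log2 fold change of −1.96 ± 0.58 (adjusted p = 0.923, edgeR). The labels did not overlap for either gene, and in both the lower value is that of the libraries labelled Il9r-/-. The sums of IM and melanocyte markers were lower in the same libraries, and that of neutrophil markers was higher. The 12 IM markers summed to 154 and 211 CPM in AMs labelled Il9r-/-, against 348 and 295 CPM in WT AMs, with negative values for 10 of the 12 and a median log2 fold change of −0.86. The 8 melanocyte markers summed to 106 and 85.8 CPM in AMs labelled Il9r-/-, against 351 and 153 CPM in WT AMs, with negative values for 8 of 8 and a median of −1.51. Neutrophil markers summed to 181 and 268 CPM, against 114 and 170 CPM in WT AMs, with positive values for 9 of 9 and a median of 1.2. Values were positive for 9 of 10 endothelial and 7 of 10 lung epithelial markers, and negative for 8 of 10 dendritic cell markers. None of these markers was called, and their part in the result was not tested. DESeq2 called Mmp14 (−3, adjusted p = 0.00111), and edgeR with only the AM libraries called Mmp12 (−1.96, adjusted p = 0.000199) and Timp2 (−0.62, adjusted p = 0.0494). Over 12 alternatives the adjusted p ran from 0.00111 to 1 for Mmp14 and from 0.000199 to 1 for Mmp12. Mmp2 gave −1.58 ± 0.63 in AMs and Timp1 −1.46 ± 0.62 in CD11c+ IMs, each with an edgeR adjusted p of 1. The highest value in each of the comparisons of Mmp14, Mmp2 and Timp1 was that of a WT library numbered 1, which is female.

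Of the IM values, Mmp12 gave −0.51 ± 0.56 in CD11c+ IMs and −1.26 ± 0.57 in CD11c- IMs, and Mmp14 −0.57 ± 0.63 and −0.32 ± 0.63. Mmp8 gave 0.82 ± 0.66 and 1.34 ± 0.66, beside neutrophil marker sums of 569 and 2290 CPM in CD11c+ IMs labelled Il9r-/- against 326 and 1370 CPM in WT, and of 3120 and 6840 CPM in CD11c- IMs labelled Il9r-/- against 417 and 3350 CPM in WT. The other 7 genes lay between −1.46 and 0.78 in the 2 IM populations. Whether the label acted differently between populations was tested as an interaction: none of the 10 genes and 0% of all genes passed in any of the 3 contrasts, with 1, 2 and 0 members and 413, 337 and 226 genes at an unadjusted p under 0.05 (edgeR). The largest was Mmp14 in CD11c- IMs minus AMs, at 2.67 ± 0.91, followed by Mmp14 in CD11c+ IMs minus AMs at 2.42 ± 0.91, each with an edgeR adjusted p of 1. The other members lay between −1.51 and 1.94.

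**Figure D5:**
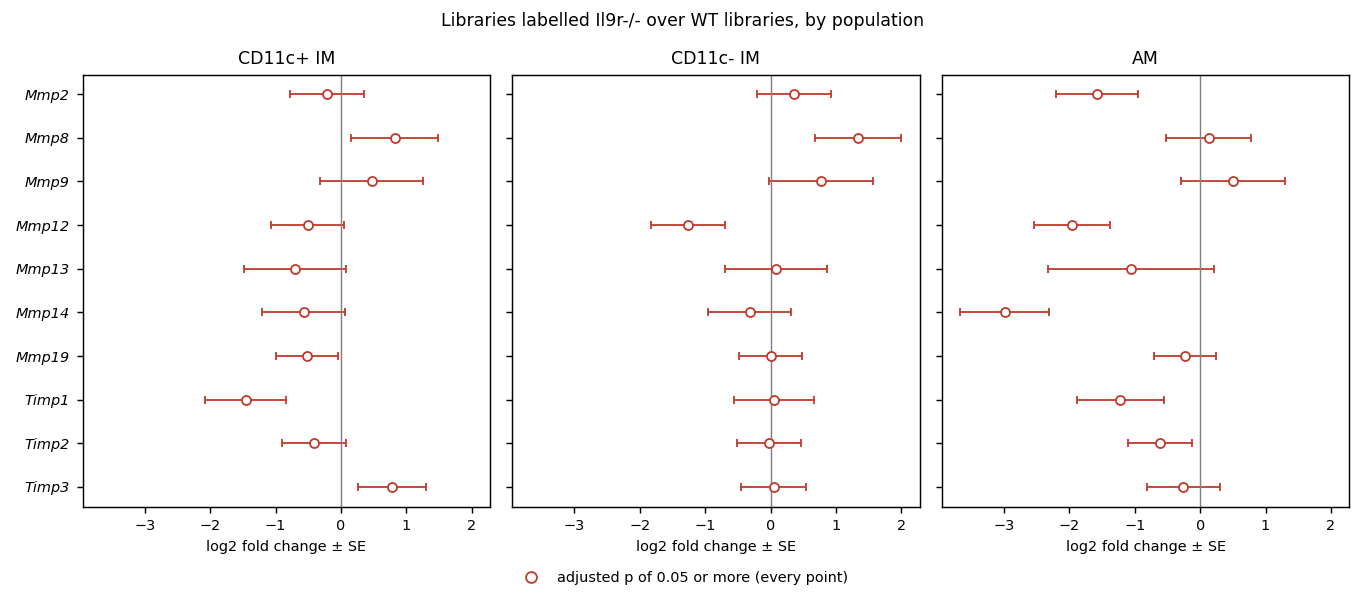
Log2 fold changes with standard errors (horizontal axes) of the 10 genes (rows) in libraries labelled Il9r-/- over WT libraries, in CD11c+ IMs, CD11c- IMs and AMs. No point passed an adjusted p of 0.05, and the points farthest from 0 are Mmp14 (−2.99) and Mmp12 (−1.96) in AMs.

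Libraries of the same number resembled each other across populations for several members. Timp2 was higher in library 1 than in library 2 in all 4 IM groups, with 557 against 327 and 717 against 462 CPM in CD11c+ IMs and 972 against 445 and 1030 against 413 CPM in CD11c- IMs, and so were Mmp12, Mmp14 and Mmp19. Mmp9 was higher in library 2 in all 6 groups. Library 2 of the IM groups also had the lower sum of IM markers (9210 and 11300 CPM against 13500 and 16900 CPM in CD11c+ IMs, 8910 and 7250 CPM against 21000 and 21800 CPM in CD11c- IMs). It had the higher sums of neutrophil, dendritic cell, T and NK cell, B cell, and mast cell and basophil markers. The melanocyte sum was lower in library 2 of the CD11c- IMs (3500 and 3610 CPM against 7800 and 9330 CPM). In CD11c+ IMs it was higher under the Il9r-/- label (160 against 68.2 CPM) and lower in WT (351 against 838 CPM). Nothing says what the number stands for, and these differences were not tested.

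Of 17 further Mmp and Timp genes listed, 9 were in the table. In CD11c+ IMs over AMs 3 were called under each label, all higher, against 12.5% of all genes under the Il9r-/- label and 11.6% in WT. In CD11c- IMs over AMs 4 were called under each label, all higher, against 29% and 25.7% of all genes. Mmp25, a membrane-anchored enzyme of leukocytes, was, like Mmp12, highest in CD11c+ IMs. It had 32.4 and 52.0 CPM in CD11c+ IMs labelled Il9r-/-, 10.6 and 11.9 CPM in CD11c- IMs and 0.782 and 2.24 CPM in AMs. WT values were 17.3 and 38.0, 3.34 and 11.3, and 1.91 and 1.01 CPM. In every IM group Mmp25 was higher in library 2, whereas Mmp12 was higher in library 1. The sum of dendritic cell markers was also higher in library 2 of every IM group. It ran from 499 to 2200 CPM in CD11c+ IMs, 221 to 934 CPM in CD11c- IMs and 28.3 to 60.2 CPM in AMs. The part of these cells in the Mmp25 levels was not tested. Mmp25 was called over AMs in CD11c+ IMs at 4.81 ± 0.77 under the Il9r-/- label (adjusted p = 0.00497, edgeR) and at 4.23 ± 0.75 in WT (adjusted p = 0.00845). Mmp3, stromelysin 1, stood with Timp3, with 1.52 and 0.626 CPM in CD11c+ IMs, 25.4 and 13.3 CPM in CD11c- IMs and 0.104 and 0.16 CPM in AMs labelled Il9r-/-. It was the only 1 of the 9 called between the IM populations, lower in CD11c+ IMs under the Il9r-/- label (−4.17 ± 0.70, adjusted p = 0.0221, edgeR), where 2.18% of all genes were called. Fibroblast markers summed to 23.7 to 85.8 CPM in CD11c+ IMs, 801 to 1080 CPM in CD11c- IMs and 18.7 to 26.3 CPM in AMs, and their part in the Mmp3 levels was not tested. Mmp23 and Mmp27 were also called over AMs in at least 1 comparison, on low counts, and Mmp15 in CD11c- IMs labelled Il9r-/-.

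Of 9 genes that activate metalloproteinases or belong to the plasminogen system, 2 were called higher and 0 lower in CD11c+ IMs over AMs under the Il9r-/- label, and 2 higher and 1 lower in WT. Of all genes, 12.5% and 11.6% were called in these comparisons. For CD11c- IMs over AMs the counts were 2 higher and 2 lower under the Il9r-/- label, and 1 higher and 2 lower in WT, against 29% and 25.7% of all genes. Plat, tissue plasminogen activator, was called in all 4, at 4.85 ± 0.58 and 1.99 ± 0.50 in CD11c+ IMs and 5.94 ± 0.60 and 3.86 ± 0.53 in CD11c- IMs. Plau, urokinase, was called in WT CD11c+ IMs (2.64 ± 0.70). Furin, which cuts the proenzyme of Mmp14, was called lower in CD11c- IMs under both labels (−1.90 ± 0.32 and −1.97 ± 0.32). St14, the membrane serine protease matriptase, was called higher under the Il9r-/- label, at 2.40 ± 0.61 in CD11c+ IMs and 2.99 ± 0.62 in CD11c- IMs. Cd44, a hyaluronan receptor that can hold Mmp9 at the cell surface, was called lower in CD11c- IMs under both labels (−1.29 ± 0.27 and −1.61 ± 0.27) and in WT CD11c+ IMs (−1.11 ± 0.27). The medians of the 9 genes were −0.05 and 0.2 in CD11c+ IMs and −0.36 and 0.04 in CD11c- IMs, against 3.15, 2.12, 3.76 and 2.21 for the 10 members.

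Of 11 other inhibitors and clearance receptors, 1 was called higher and 1 lower in CD11c+ IMs over AMs under each label, and 4 higher and 3 lower in CD11c- IMs over AMs under each label. The shares of all genes called were 12.5% and 11.6% in CD11c+ IMs and 29% and 25.7% in CD11c- IMs, under the Il9r-/- label and in WT. Reck, a membrane-anchored inhibitor of metalloproteinases, was called in all 4 (3.96 ± 0.90 and 4.01 ± 0.92 in CD11c+ IMs, 5.13 ± 0.94 and 5.43 ± 0.96 in CD11c- IMs). Slpi, an inhibitor of neutrophil elastase, was called lower in CD11c+ IMs (−1.54 ± 0.36 and −1.69 ± 0.36). Over AMs, in CD11c- IMs, Serpinb2, the plasminogen activator inhibitor PAI-2, was called higher under both labels (6.21 ± 1.07 and 5.54 ± 1.05), Lcn2, a neutrophil protein that binds Mmp9, under the Il9r-/- label (5.08 ± 1.44) and Mrc2, a receptor that takes up collagen, in WT (3.84 and 2.39 CPM, against 0.0545 and 0 CPM in AMs). Pzp, a broad protease trap of the alpha-2-macroglobulin family, was called lower under both labels (−3.94 ± 1.10 and −7.44 ± 1.40).

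For each member but Mmp8, the genes with the most similar profile were taken by Pearson's r of log2 CPM over the 12 libraries, a description that is dominated by the 3 populations. Mmp12 was closest to AA467197 (0.968), Slc36a2 (0.947) and Plxnd1 (0.943), Mmp13 to Abcg3 (0.98), Kcnn4 (0.98) and Papss2 (0.975), and Mmp14 to Fam20c (0.975), Anpep (0.968) and Mfge8 (0.959). Mmp9 was closest to Klf2 (0.981), Ndufaf7 (0.976) and Grap (0.975), Mmp2 to Gstm2 (0.97), Serpinf1 (0.964) and Dclk2 (0.959), and Timp3 to Cyr61 (0.989), Tm4sf1 (0.981) and Fermt2 (0.975). Mmp19 was closest to Ctsk (0.983), Creg1 (0.982) and Gpr137b-ps (0.981), Timp2 to Ptgs1 (0.983), Nt5dc2 (0.982) and Aph1c (0.978), and Timp1 to Arhgap10 (0.964), Ccl24 (0.963) and Rell1 (0.961). Without the 3 female WT libraries at most 1 of the 3 genes stayed among the 3 closest for any of these members. Among the members themselves the highest r were 0.93 for Timp1 and Timp2 and 0.92 for Mmp2 and Timp3, and the lowest −0.91 for Mmp19 and Timp3.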

How the data were processed

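RNA-Seq libraries were made with SMART-Seq v4 and Nextera XT, a kit that does not mark strand, and sequenced on NovaSeq. Per the labels and the study's methods, the authors used STAR 2.5 with the mm10 build, counted reads over refGene genes with featureCounts (Subread 1.5.1), removed genes of low CPM and deposited raw counts and log2 FPKM values per library. The methods state that featureCounts was run with the option -s 2, which counts reads by strand, although the kit does not mark it. The deposited table also holds columns of the authors' own comparisons (fold changes, p-values and false discovery rates), which were not used, and 0 further columns of samples.

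Counts of 14648 genes, all with at least 0.5 CPM in at least 2 libraries, were normalized by TMM (factors 0.91 to 1.19) and fitted in 1 model of 6 groups with edgeR 4.0.16 in R 4.3.3 (robust quasi-likelihood test, common biological coefficient of variation 0.382, 6 residual degrees of freedom), with Benjamini-Hochberg adjustment over all genes. Depth was 26988617 to 42020021 counts per library, and floors of 0 counts cover counting error only. CPM in the text are TMM-normalized, and levels of different genes are compared only in FPKM, taken back from the deposited log2 values. Shares of FPKM, marker sums and correlations are descriptions.

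The members and lists were chosen with earlier results of these data known. All 10 members are given in the comparisons between populations, and in part by their range in those between labels and the interactions. Of each other list up to 4 genes per comparison are named, those called with the largest change, and for each member the 3 genes of highest correlation among those with a mean log2 CPM of at least 1. Alternatives were DESeq2 1.42.0 and its size factors, other filters (none, or 5 CPM), the library number as a block, no robust step, only the groups compared, each library left out, and the WT libraries numbered 1 left out. The genes closest in profile to Mmp8 are not reported here.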

Additional observations from a re-analysis of the deposited data

How the results depend on the processing

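Of 120 log2 fold changes of the 10 genes, 36 changed sign under some alternative, none of them among the 31 that were called, and 22 of the 31 missed the threshold under some alternative. The number of all genes called moved with that of the members and is given in parentheses. In WT CD11c+ IMs over AMs, the members called ranged from 1 to 3 with 1 library left out (442 to 805 genes, against 1693) and were 0 without the 3 WT libraries numbered 1 (0 genes). In WT CD11c- IMs over AMs they ranged from 4 to 8 (1475 to 2959 genes, against 3771) and were 2 without those 3 (493 genes). Between the WT IM populations they were 0 with any library left out (7 to 102 genes, against 111), 0 without those 3 (1 gene) and 0 with only the groups compared (7 genes), but 4 with DESeq2 (1251 genes). Under the Il9r-/- label they ranged from 3 to 8 (481 to 2036 genes, against 1824), 6 to 8 (1800 to 3032, against 4249) and 0 to 2 (48 to 407, against 320) with 1 library left out in CD11c+ IMs over AMs, CD11c- IMs over AMs and CD11c+ over CD11c- IMs, and the last was 4 with DESeq2 (1481 genes) and 0 with only the groups compared (7 genes). Between the labels in AMs, DESeq2 called 1 member (65 genes, against 3) and the fit with only the groups compared 2 (113 genes), without a test for Mmp13.

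The labels do not say what the library number stands for, although the 3 WT libraries numbered 1 are the 3 female ones. Deviations of same-numbered libraries correlated at 0.277 to 0.627 among WT groups, 0.138 to 0.43 among groups labelled Il9r-/- and 0.0164 to 0.602 across labels, and with 2 numbers this is only a hint. With the replicate block, 5 members (456 genes) were called between the WT IM populations, 4 (714 genes) between those labelled Il9r-/- and 1 between the labels in AMs (Mmp14, −2.77, adjusted p = 0.0279, edgeR), and with the block within each label the first 2 counts were 4 and 4 (393 and 526 genes). Mmp19 between the IM populations passed in both (adjusted p = 0.0342 and 0.0417 under the Il9r-/- label, 0.0179 and 0.0206 in WT). Mmp9 between them passed with the replicate block under the Il9r-/- label and in WT (−2.28 and −1.92, adjusted p = 0.0152 and 0.0358, edgeR). With the block within each label it passed under the Il9r-/- label only (−2.28, adjusted p = 0.0271). Mmp14 between them passed in both fits in WT only (1.48 and 1.49, adjusted p = 0.036 and 0.0356).

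Of the values that changed sign, 4 were between populations and the rest were differences between labels or interactions. Mmp8 in WT CD11c+ IMs over AMs ranged from −0.57 to 0.12 with 1 library left out (0.12 without WT AM library 1, 0.07 without WT CD11c+ IM library 1) and was 0.42 without the WT libraries numbered 1. Mmp8 in WT CD11c- IMs over AMs was −0.12 with the block within each label and ranged from −1.50 without WT CD11c- IM library 2 to 1.07 without library 1. Mmp8 between the WT IM populations ranged from −1.29 without WT CD11c- IM library 1 to 1.28 without library 2. Timp2 between them ranged from −0.80 without WT CD11c- IM library 2 to 0.51 without library 1, and was 0.02 without WT CD11c+ IM library 2 and 0.16 without the WT libraries numbered 1. Between the labels, Mmp8 in AMs ranged from −0.15 to 0.47 with 1 library left out, Mmp12 in CD11c+ IMs ranged from −1.72 without library 1 to 0.13 without library 2 labelled Il9r-/-, and Mmp14 in CD11c- IMs ranged from −1.04 without library 1 labelled Il9r-/- to 0.47 without WT library 1, and was 0.16 without library 2 of that label and 0.47 without the WT libraries numbered 1. Mmp13 in AMs ranged from −6.05 without library 2 labelled Il9r-/- to 4.98 without WT library 1, fits in which 1 label had 0 counts, and Mmp9 in CD11c+ IMs ranged from −0.79 without library 2 labelled Il9r-/- to 1.77 without WT library 2. The cause of these differences was not tested. With 1 library left in a group, its spread is assumed to be that of the other groups. At these depths the limit of detection mattered only for Mmp13 in AMs.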

Other observations

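Adamalysins, the ADAM and ADAMTS proteases that share the zinc site of the metalloproteinases and of which several are inhibited by Timp3, were also followed, with 16 of 17 listed genes in the table. In CD11c+ IMs over AMs 3 were called higher and 1 lower under each label, against 12.5% of all genes under the Il9r-/- label and 11.6% in WT. In CD11c- IMs over AMs 8 were called higher and 0 lower under the Il9r-/- label, against 29% of all genes. In WT 5 were called higher there and 1 lower, against 25.7%. Adam8, a sheddase of leukocytes, had 457 and 524 CPM in CD11c+ IMs labelled Il9r-/-, 241 and 377 CPM in CD11c- IMs and 4.8 and 14.6 CPM in AMs, and 510 and 432, 222 and 237, and 7.5 and 11.4 CPM in WT. Its log2 fold change in CD11c+ IMs over AMs was 5.66 ± 0.54 under the Il9r-/- label (adjusted p = 0.00057, edgeR) and 5.64 ± 0.54 in WT (adjusted p = 0.000748). All IM libraries lay above all AM libraries, as they did for Adam19 (18.5 to 58.4 CPM in IMs and 0.365 to 3.98 CPM in AMs).

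Adamts4, an aggrecanase, stood with Timp3, at 9.92 to 13.1 CPM in the 4 CD11c- IM libraries, 0.0586 to 2.55 CPM in CD11c+ IMs and 0 to 0.145 CPM in AMs. Adamts2, which trims procollagen, was lowest in CD11c+ IMs, at 1.82 to 3.85 CPM. It had 9.62 to 18.9 CPM in CD11c- IMs and 18.4 to 22.7 CPM in AMs, ranges that overlapped. It was called lower in CD11c+ IMs than in AMs (−2.72 ± 0.42 under the Il9r-/- label, adjusted p = 0.00397, and −2.80 ± 0.42 in WT, adjusted p = 0.00413, edgeR) and than in CD11c- IMs under the Il9r-/- label (−2.24 ± 0.41, adjusted p = 0.0294). Adamts1, a protease of aggrecan and versican, had 35.6 to 77.1 CPM in CD11c- IMs, 1.68 to 17 CPM in CD11c+ IMs and 0.868 to 3.97 CPM in AMs, and was called higher in CD11c- IMs than in AMs (4.07 ± 0.89 under the Il9r-/- label, adjusted p = 0.00976, and 5.11 ± 0.94 in WT, adjusted p = 0.00519, edgeR). Adamts5 under both labels and Adam28 under the Il9r-/- label were also called there, on at most 6 counts in any AM library. Fibroblast markers summed to 801 to 1080 CPM in CD11c- IMs, 23.7 to 85.8 CPM in CD11c+ IMs and 18.7 to 26.3 CPM in AMs. Their part in the levels of Adamts1, Adamts4 and Adamts5 was not tested.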
